A study of Rattus norvegicus with 2 samples.

Results

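The miR-30 family in the nucleus accumbens (NAc) was followed through its 5 guide strands, rno-miR-30a, rno-miR-30b-5p, rno-miR-30c, rno-miR-30d and rno-miR-30e (written below without the prefix for rat), which were found by name among the 349 rat miRNA probes of the array. Names that end in * or -3p, which mark passenger arms, were left out of the family and are described separately. The NAc is a brain region of reward, and both its core and its shell were sampled. Adult male Sprague-Dawley rats of 150 to 180 g received either vehicle (500 ul of saline) or alcohol (1 g/kg), injected intraperitoneally 2 times a day over 7 days. The 18 rats made up 2 groups, and the data held 1 array for vehicle and 1 array for alcohol. The methods give 9 rats per group and do not state whether their RNA was pooled for an array. With 1 array per group there was no replicate check and no test, and treatment and array cannot be told apart. Every SD below is over 9 repeat spots of a probe, which carry the same RNA, so it covers the error within an array only.

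MiRNAs guide the silencing complex to mRNAs through the seed, the stretch from base 2 to base 8, and lower the output of those mRNAs. The miR-30 family is broadly expressed, the brain included, and its members share their seed while they differ towards the 3′ end. They are made from clusters of paired genes, so a cluster mate is normally cut from a shared primary transcript.

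The results compare RNAs that share their seed and differ after it. Shown are therefore the mature sequences of miR-30a, miR-30c and miR-30e and of miR-384-5p, the only other probe with the same seed. They are given 5′ to 3′ with the seed in capitals, as found both in the probe list and in RefSeq (GRCr8). The RefSeq set used held mature sequences for 3 of the 5 members.
miR-30a: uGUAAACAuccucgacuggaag
miR-30e: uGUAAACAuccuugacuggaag
miR-30c: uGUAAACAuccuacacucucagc
miR-384-5p: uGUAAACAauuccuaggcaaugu

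The seed GUAAACA was present in all 5 members by the probe list. With bases counted from 1 at the 5′ end, miR-30a and miR-30e, both 22 nt long, differed by the single substitution C13U. miR-30c, with 23 nt, shared its first 12 bases with miR-30a and diverged after them. miR-384-5p shared only the first 8 bases with miR-30a. The GC content was 45.5% for miR-30a, 43.5% for miR-30c, 40.9% for miR-30e and 34.8% for miR-384-5p.

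In GRCr8, Mir30a gives its mature RNA at chr9:33233946-33233967 on the plus strand, and its cluster mate Mir30c2 gives miR-30c at chr9:33253695-33253717 on the same strand. Mir30c1 gives the identical miR-30c at chr5:139634505-139634527 on the minus strand, and its cluster mate Mir30e gives miR-30e at chr5:139637504-139637525 on the minus strand. Both genes of the chromosome 5 cluster lie within the span of Nfyc, which encodes a subunit of the transcription factor NF-Y. Mir30b and Mir30d are neighbours on chromosome 7. RefSeq lists 0 genes that lie wholly between the members of any of the 3 clusters. A probe for miR-30c cannot tell the products of Mir30c1 and Mir30c2 apart.

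Spots on these arrays are read in 1 colour (Cy3), so a density follows the amount of labelled RNA bound, by the probe's own scale. All 5 members were detected on 9 of 9 spots of both arrays. Detection meant that at least 5 spots lay above a limit set from the mismatched control spots, which was 278 on vehicle and 179 on alcohol. Repeat spots scattered more with vehicle, where their coefficient of variation had a median of 9.10% over the 150 miRNAs detected on both arrays, than with alcohol, where it was 6.38%. The brain origin of the RNA was visible in 5 neuron-enriched miRNAs (miR-124, miR-9, miR-128, miR-137 and miR-132), all detected on both arrays, whereas 0 of 5 blood-cell miRNAs was detected on either.

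miR-30a and miR-30e, the dimmest members, showed the widest separation between the arrays. In such bulk tissue, fewer cells of a type and less RNA per cell cannot be told apart. The raw density of miR-30a ran from a lowest spot of 872 over a median of 1128 to a highest of 2086 on the vehicle array. On the alcohol array it ran from 5557 over 6098 to 6748. The groups of spots lay far apart, with the dimmest alcohol spot of miR-30a above its brightest vehicle spot.

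miR-30e had vehicle spots from 562 to 815 with a median of 656, and alcohol spots from 2449 to 2954 with a median of 2601. As for miR-30a, no vehicle spot reached the alcohol spots.

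miR-30b-5p and miR-30d, the 2 mates of the chromosome 7 cluster, stood between. The density of miR-30b-5p was 4875 to 8091 on the vehicle array (median 5750) and 9085 to 11709 on the alcohol array (median 10275). That of miR-30d was 3517 to 5383 on the vehicle array (median 4270) and 6131 to 7112 on the alcohol array (median 6550). For both, all alcohol spots were brighter than all vehicle spots before any correction.

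miR-30c, the brightest member, did not separate. Its vehicle spots reached from 11322 to 15899 with a median of 12465, and its alcohol spots from 11390 to 13458 with a median of 12479. The alcohol spots of miR-30c fell inside the vehicle range.

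**Figure D1:**
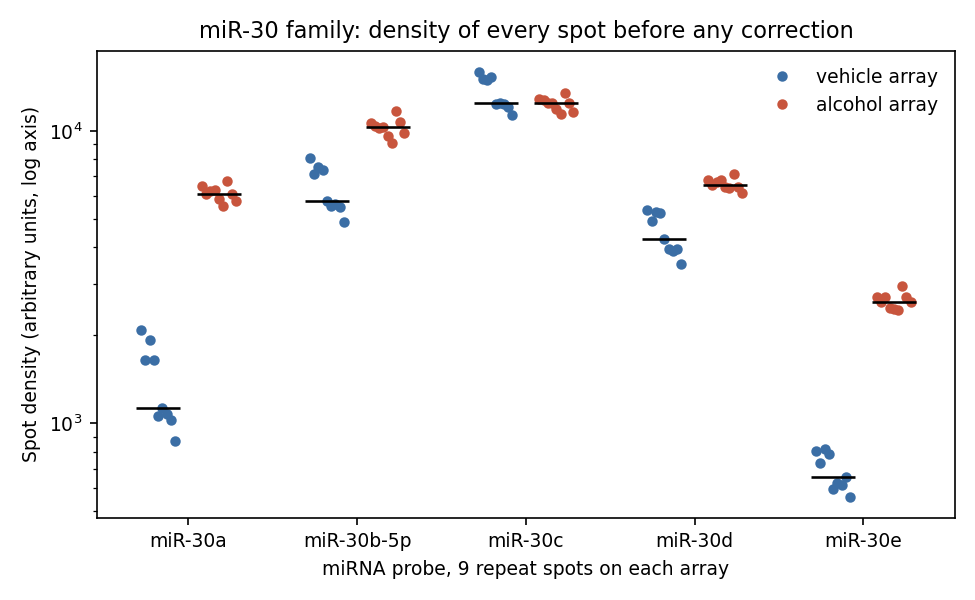
Raw spot density (arbitrary units, log axis) of the 5 miR-30 probes, with 9 repeat spots in file order on the vehicle array (blue) and on the alcohol array (red) and a black line at each median. The spots of miR-30a, miR-30b-5p, miR-30d and miR-30e do not overlap between the arrays, and those of miR-30c do.

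Before correction, 4 of 5 members thus had all alcohol spots above all vehicle spots, which was also the case for 56.0% of the 125 miRNAs that were detected on at least 1 array and reached a normalized signal of 400 on the brighter array. The opposite, all alcohol spots below all vehicle spots, was seen for 0 of the members and for 11.2% of the 125. All 5 members were among these 125. On the vehicle array the first 4 spots in file order were brighter than the other 5 for each member. For miR-30a the first 4 read 1648 to 2086 and the other 5 read 872 to 1128. The SD over spots of each member's log2 ratio includes this step between positions. On the alcohol array the same first 4 spots of miR-30a read 6064 to 6460, inside the range of the others, so the separation of miR-30a was present in either set of positions.

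After background correction and cyclic loess, which removes a difference in brightness that depends on the signal, the signal of miR-30a was 1483 on vehicle and 4866 on alcohol, a ratio of alcohol over vehicle of 3.28-fold. Over spots its log2 ratio spread by 0.47 (SD, 9 spots) and ran from 1.08 to 2.31. miR-30e had a signal of 764 on vehicle and 1861 on alcohol, a 2.44-fold difference with a log2 SD of 0.26. For both miRNAs the ratio was above 0 on 9 of 9 spots. Among the 125 detected and bright miRNAs, 4 had a larger ratio than miR-30a and 9 a larger ratio than miR-30e.

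miR-30b-5p had a normalized signal of 6521 on vehicle and 9613 on alcohol, 1.47-fold, with a log2 SD of 0.26. The signal of miR-30d was 4841 on vehicle and 5795 on alcohol, a log2 ratio of 0.26 with an SD of 0.22. Normalized spots of miR-30b-5p did not overlap between the arrays, but almost met. The highest vehicle spot was 8439 and the lowest alcohol spot 8512. Normalized spots of miR-30d, unlike its raw spots, did overlap. The signal of miR-30c was 13080 on vehicle and 12505 on alcohol, 0.956-fold, with 4 of 9 spots higher on the alcohol array and a log2 SD of 0.17.

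**Figure D2:**
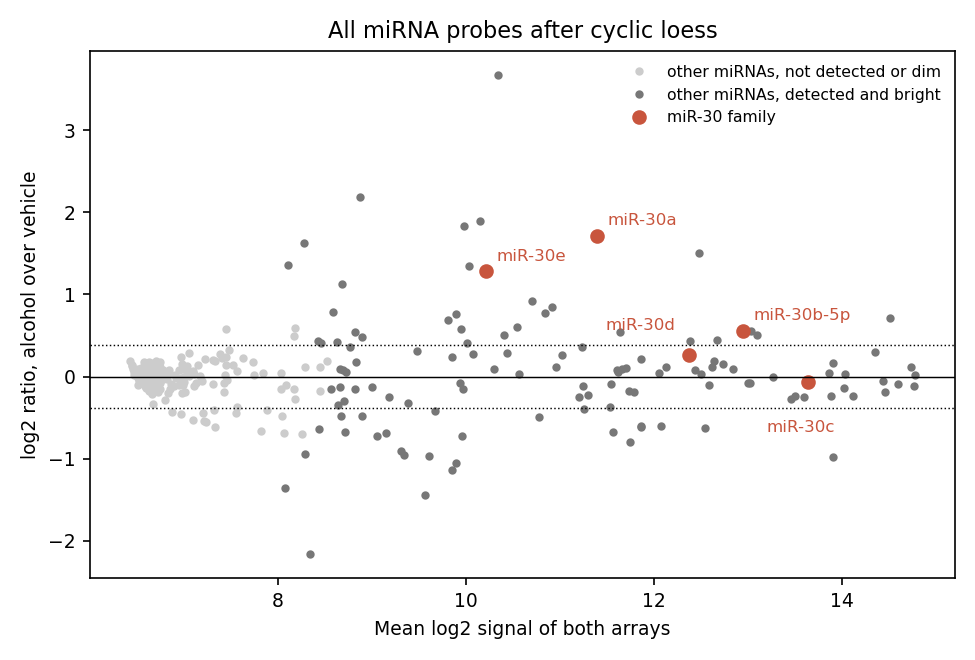
Log2 ratio of alcohol over vehicle against the mean log2 signal of both arrays for all 349 miRNA probes after cyclic loess, with the 5 miR-30 members in red, other detected and bright miRNAs in dark grey and the rest in light grey. Dotted lines mark 1.3-fold, which miR-30a, miR-30e and miR-30b-5p pass and miR-30d and miR-30c do not.

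At a threshold of 1.3-fold, 3 of 5 members were higher on the alcohol array, against 26.4% of the detected and bright miRNAs. None of the 5 was lower by 1.3-fold, against 20.8% of these miRNAs. At 2-fold the members higher were miR-30a and miR-30e, 2 of 5, against 8.80% of these miRNAs. Normalized spots lay wholly above the vehicle spots for 3 of 5 members, against 14.4%. The median log2 ratio was 0.56 over the 5 members and 0.044 over the 125. Without normalization these medians were closer, at 0.73 and 0.61. With 5 members chosen with earlier results known, these are descriptions and carry no test.

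The direction was stable under other processing for miR-30a and miR-30e but not for the rest. Under 15 other settings the log2 ratio of miR-30a lay between 1.12 and 2.64 and that of miR-30e between 0.95 and 2.50, and both passed 1.3-fold in all 15. miR-30b-5p passed it upwards in 12 of the 15, and was lower on the alcohol array, at -0.49 and -0.24, when the arrays were scaled to the median of the detected miRNAs or to the 75th percentile. miR-30d ranged from -0.62 to 0.90, below 0 under these same 2 scalings. miR-30c ranged from -1.33 to 0.19, above 0 under 3 settings. Such scalings move all miRNAs alike. Measured from the middle (median) of the 150 doubly detected miRNAs, the log2 ratio of miR-30a was 1.78 above it after cyclic loess and 1.77 above it under any constant scaling. For miR-30e the distances were 1.35 and 1.63, for miR-30b-5p 0.63 and 0.16, for miR-30d 0.33 and 0.03, and for miR-30c 0.0049 and -0.68.

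The order of brightness was the same on both arrays, with miR-30c first, then miR-30b-5p, miR-30d, miR-30a and miR-30e. This is an order of normalized probe signals and not of molecules, since probes differ in how brightly they report. On the vehicle array the spots of miR-30b-5p and miR-30d overlapped, as did those of miR-30a and miR-30e, where the lowest miR-30a spot was 927 and the highest miR-30e spot 947. On the alcohol array no neighbours in the order overlapped, although miR-30d and miR-30a almost met, at a lowest spot of 5392 for miR-30d and a highest spot of 5382 for miR-30a. The gap from miR-30d to miR-30a was 3.26-fold on the vehicle array and 1.19-fold on the alcohol array.

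The make-up of the family signal was more even on the alcohol array. The share of miR-30c in the summed normalized signal of the 5 members was 49.0% ± 1.73 on vehicle and 36.1% ± 0.356 on alcohol (SD, 9 spots). That of miR-30a was 5.56% ± 1.10 on vehicle and 14.0% ± 0.192 on alcohol. The share of miR-30e was 2.86% ± 0.132 on vehicle and 5.37% ± 0.174 on alcohol. All 3 differences exceeded the spread over spots.

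miR-30b-5p took 24.4% ± 0.575 of the family signal on vehicle and 27.8% ± 0.624 on alcohol. miR-30d took 18.1% ± 0.472 on vehicle and 16.7% ± 0.493 on alcohol. These 2 differences are the smallest in proportion to the share, and both turned sign under some other setting, with extremes of -1.68 percentage points for miR-30b-5p and 0.46 for miR-30d. Over all 15 settings the share of miR-30a was larger on the alcohol array by 7.24 to 11.4 percentage points and that of miR-30e by 1.55 to 4.62, and the share of miR-30c was smaller, the difference lying between -19.4 and -4.63.

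**Figure D3:**
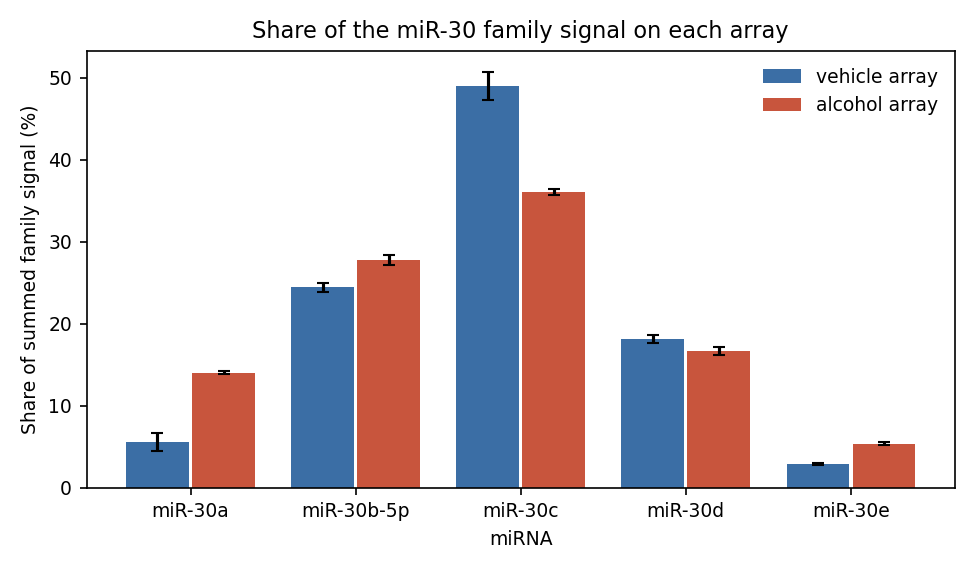
Share of each member in the summed normalized signal of the 5 miR-30 members, in percent, on the vehicle array (blue) and the alcohol array (red). Error bars are the SD over 9 repeat spots, and the share of miR-30c is 49.0% on vehicle and 36.1% on alcohol while that of miR-30a is 5.56% and 14.0%.

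The summed signal of the family was 26689 on vehicle and 34640 on alcohol, a log2 ratio of 0.38 ± 0.22 (SD, 9 spots). It made up 4.19% of the signal of all 349 miRNA probes on vehicle and 5.31% on alcohol. Of the difference of 7951 units between the sums, miR-30a gave 3383, miR-30b-5p 3092, miR-30e 1097 and miR-30d 954, while miR-30c was lower by 575 units (-575). The sign of the summed ratio depended on the scaling, from -0.66 with scaling to the median to 0.86 with the 5S rRNA probes.

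Ratios within a genomic cluster are free of any constant scaling of an array, but not of a difference that depends on the signal. On 1 array such a ratio compares 2 probes and is no ratio of molecules, but its change between the arrays is that of the same 2 probes. For the chromosome 9 pair, the signal of miR-30a was 0.113 of that of miR-30c on the vehicle array, with spots from 0.0842 to 0.157. On the alcohol array it was 0.389, with spots from 0.374 to 0.397. The ratio was 3.43-fold larger on the alcohol array, a log2 change of 1.78 ± 0.32 (SD, 9 spots). Without normalization or under any constant scaling, which leave a signal-dependent difference in place, the factor was 5.47-fold.

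For the chromosome 5 pair, miR-30c was 17.1 times as bright as miR-30e on the vehicle array, with spots from 15.4 to 18.5, and 6.72 times as bright on the alcohol array, with spots from 6.38 to 7.16. The ratio of miR-30c over miR-30e was thus 2.55-fold smaller on the alcohol array, a log2 change of -1.35 ± 0.11, and 4.97-fold smaller under constant scaling. In both clusters that carry a miR-30c gene, miR-30c was the mate with the smaller ratio of alcohol over vehicle, and in neither did the spots of the ratio overlap between the arrays. Both ratios rest on the same miR-30c probe, so they are not independent of each other.

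For the chromosome 7 pair, miR-30b-5p was 1.35 times as bright as miR-30d on the vehicle array, with spots from 1.28 to 1.43, and 1.66 times on the alcohol array, with spots from 1.52 to 1.78. The log2 change was 0.30 ± 0.07, a 1.23-fold difference, and 1.09-fold under constant scaling. Its size was a small part of the changes of the other pairs. All 3 changes had their direction on 9 of 9 spots, and over the 15 other settings they ran from 1.19 to 2.45 for miR-30a over miR-30c, from 0.10 to 0.39 for miR-30b-5p over miR-30d and from -2.31 to -0.77 for miR-30c over miR-30e.

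**Figure D4:**
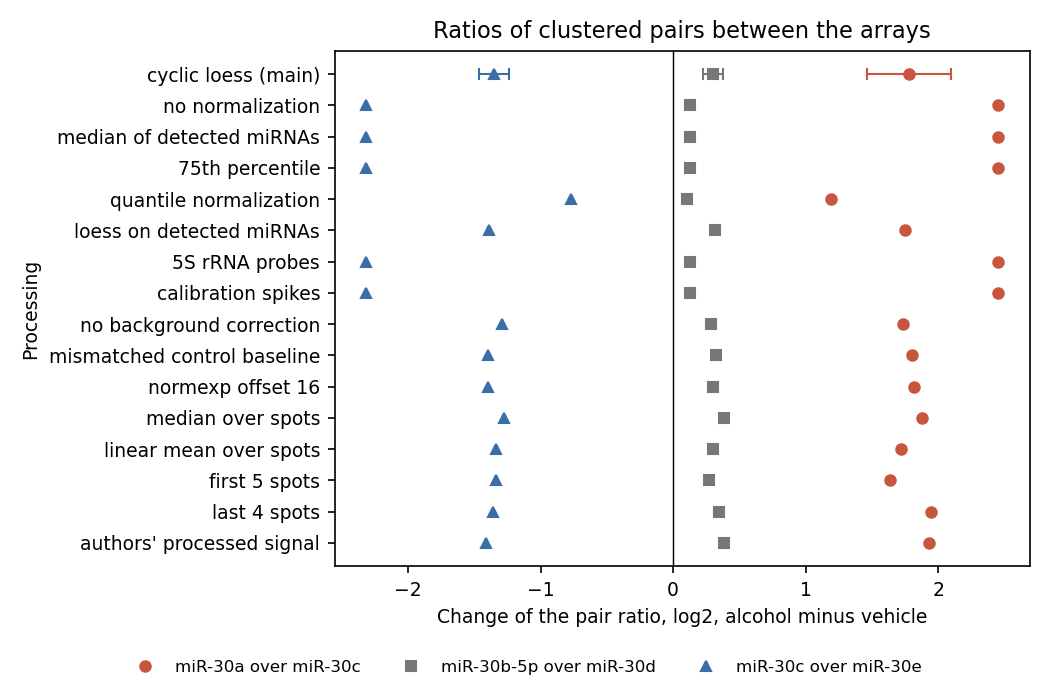
Log2 change of the ratio of each clustered pair between the arrays (alcohol minus vehicle, x axis) under cyclic loess and 15 other ways of processing (y axis), with the SD over 9 spots as error bars for cyclic loess. miR-30a over miR-30c (red circles) stays at 1.19 or above, miR-30c over miR-30e (blue triangles) at -0.77 or below, and miR-30b-5p over miR-30d (grey squares) between 0.10 and 0.39.

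Passenger arms, the strands of a hairpin that are mostly discarded, gave no comparable readout. Of the 6 probes, for miR-30a*, miR-30b-3p, miR-30c-1*, miR-30c-2*, miR-30d* and miR-30e*, the vehicle array detected 0 and the alcohol array 3. The brightest, miR-30e*, had a median raw density of 272 on the vehicle array, with 4 of 9 spots above the limit, and 308 on the alcohol array, with all 9 above. miR-30a* read a median of 268 with 2 spots above the limit on vehicle and 242 with 9 on alcohol. miR-30c-2* read 260 with 0 spots above on vehicle and 189 with 7 on alcohol. Since the limit itself was lower on the alcohol array, and the density of miR-30a* and miR-30c-2* was too, these counts are no difference in level, and no fold is given.

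miR-384-5p, which shares the seed but not the 3′ part, lay within the range of the family in its ratio after cyclic loess. Its ratio was smaller than those of miR-30a, miR-30e and miR-30b-5p and larger than those of miR-30d and miR-30c. Its raw density was 1305 to 2943 on the vehicle array (median 1616) and 3108 to 3994 on the alcohol array (median 3452). After normalization its signal was 2138 on vehicle and 2734 on alcohol, with 6 of 9 spots higher on alcohol. Its log2 ratio, 0.35 ± 0.42 (SD, 9 spots), was smaller than its spread over spots and ran from -0.19 to 1.33 over the other settings.

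With 2 arrays a pattern is no more than a ratio, and likeness here is nearness in log2 ratio among the miRNAs outside the family that were detected on both arrays. Nearest to miR-30a were miR-27a, at 1.84 ± 0.51, and miR-335, at 1.90 ± 0.68 (SD, 9 spots each). Nearest to miR-30e were miR-22, at 1.35 ± 0.20, and miR-101a, at 1.12 ± 0.21. These distances were all smaller than the spread over spots of the miRNA concerned.

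Other families of close relatives differed in how far their members spread. The 5 miR-30 members spanned 1.78 on the log2 scale, or 1.91 when the median of the spots was used. The let-7 family with miR-98, 8 probes, spanned 1.07, which was 0.31 by the median of the spots. By the mean of the spots, 0 of its members were higher and 1, let-7d, was lower by 1.3-fold. The 3 miR-29 probes spanned 3.38 with 2 members higher, and the 4 miR-181 probes spanned 1.19 with 1 higher and 1 lower. Without normalization the ranges were 2.45 for miR-30, 2.11 for let-7, 4.56 for miR-29 and 1.59 for miR-181, so that let-7 came near miR-30 and passed miR-181. No test of these differences was possible.

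Other measures also differed between the arrays. In the 2 pairs of control probes that were compared, the mismatched probe was brighter, relative to its partner, on the alcohol array. The limit set from the 88 mismatched control spots went the other way, at 278 on vehicle and 179 on alcohol. Other mismatched controls were not compared with their partners. PUC2MM, by its name the mismatched partner of PUC2PM, read 46.5% of its partner with vehicle and 77.0% with alcohol after the baseline was taken off. Ctr09-3M10 held 0.138% of the signal of Ctr09-3P on vehicle and 7.78% on alcohol. Whether probes as alike as those of miR-30a and miR-30e shared labelled RNA, and its part in the ratios, was not tested.

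Of the markers of other cells, 2 listed oligodendrocyte miRNAs were on the array, miR-219-5p and miR-338. Neither was detected on vehicle, and both were detected on alcohol, where the limit was lower. Their summed normalized signal was 321 on vehicle and 693 on alcohol. The difference lay in miR-338, at 177 on vehicle and 548 on alcohol. Other arms of these hairpins, looked up after the listed ones had been read, went the other way, with miR-219-2-3p at 2584 on vehicle and 2170 on alcohol and miR-338* at 681 and 413, each detected on 9 of 9 spots of both arrays. miR-219-1-3p was not detected on either array. The oligodendrocyte probes thus gave no common direction. The 3 vessel-wall miRNAs, miR-126, miR-143 and miR-145, were detected on both arrays and summed to 8515 on vehicle and 10028 on alcohol. The 5 blood-cell miRNAs summed to 488 on vehicle and 483 on alcohol, and the 5 neuron-enriched ones to 87237 and 101390. Most of the latter difference came from miR-9, at 18218 on vehicle and 29945 on alcohol, whose log2 ratio was 0.72 by the mean of its spots and -0.12 by their median, and the median log2 ratio of the 5 was 0.03. Of 5 miRNAs of other organs, 2 were detected on vehicle and 1 on alcohol, and miR-122, known from liver, was at 685 on vehicle and 153 on alcohol. The part of these cells in the miR-30 ratios was not tested.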

How the data were processed

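Small RNA from the NAc was tailed, tagged, stained with Cy3 and hybridized to 1-colour arrays (miRRat 9.2). Per the file headers, the authors deposited the mean intensity (density) of each spot, with background left in, and, in a second table, 1 processed intensity per probe cyclically normalized by a tool not given in the sources used here. The spot intensities were used, and the processed values served as an alternative. Each array had 3968 spots, 9 for each of 349 miRNA probes.

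Background was corrected with normexp (offset 50, fitted on the foreground, as no background column was used) in limma 3.58.1 under R 4.3.3. Log2 values were averaged over spots and normalized with cyclic loess (span 0.7, 3 iterations) over all miRNA probes. A miRNA was detected when at least 5 spots lay 3 median absolute deviations or more over the middle value of the 88 mismatched control spots, and called when detected on at least 1 array, at 400 or more on the brighter array, and different by 1.3-fold. The SD of a ratio is over the 9 positions, which match between the arrays. The number of arrays limits the precision, and no p-value was computed. Summaries used Python 3.11.15 with pandas 2.3.3. The steps were run on simulated data in which equal numbers of miRNAs were raised and lowered, with no step between spot positions. Such a run checks the code and not whether these arrays meet that balance.

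Named miRNAs were the 5 members, passenger arms of the family, probes with the same seed, the 2 miRNAs nearest in ratio to miR-30a and to miR-30e, 3 comparison families and marker lists. Members and lists were chosen with earlier results of these data known. Of the 5 members, miR-30a, miR-30c and miR-30e matched mature sequences in RefSeq (GRCr8). The RefSeq set used held no mature sequence for miR-30b-5p and miR-30d. The files name no genome build. The other experiments of the study were not analysed here.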

Additional observations from a re-analysis of the deposited data

How the results depend on the processing

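Among 15 other settings, the 3 members higher by 1.3-fold became 2 with scaling to the median of detected miRNAs, to the 75th percentile or with quantile normalization, and 4 without normalization or with scaling to the 5S rRNA probes or calibration spikes. The share of all detected and bright miRNAs higher by 1.3-fold was 13.8% with the median, 22.4% with the 75th percentile, 21.8% with quantile normalization, 66.4% without normalization and with spikes, and 75.8% with 5S rRNA, so the 4 of 5 members stand beside a large share of all. The 0 members lower became 3 with median scaling, beside 79 of the 123 detected and bright miRNAs there. With the 75th percentile 1 member was lower, miR-30c at -1.08, beside 60 of 125. The log2 ratio of miR-30b-5p turned to -0.49 with the median and -0.24 with the 75th percentile, and only the former passed 1.3-fold. The change of miR-30a over miR-30c was 2.45 without normalization and under the 4 constant scalings (which share 1 value by construction) and 1.19 with quantile normalization. That of miR-30c over miR-30e was -2.31 and -0.77 in the same order. That of miR-30b-5p over miR-30d was 0.13 and 0.10, with 0.38 for the median over spots and 0.39 in the authors' processed signal. The summed family signal gave -0.66 when scaled to the median, -0.41 to the 75th percentile and 0.86 to 5S rRNA. For quantile normalization, the median over spots and the authors' signal the cause was not tested. Each change of a pair ratio kept its direction in all 15 settings.

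Of the 125 detected and bright miRNAs, 33 were higher and 26 lower. As the number of bright miRNAs moved with the setting, the counts go with the shares given above. They were 85 and 8 without normalization or with spikes, 100 and 2 with 5S rRNA, 28 and 60 with the 75th percentile, 17 and 79 with median scaling, 27 and 30 with quantile normalization, 41 and 20 when loess was fitted to detected miRNAs, and 25 and 33 in the authors' signal. All 349 probes had a median of 0.0067 after cyclic loess and of -1.43 with median scaling. No paired analysis was possible because a single array stood for each group. Signals of passenger arms near background limit what the arrays can show of them.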
